A study of Mus musculus with 8 samples.

Results

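*Zscan4* is measured on these arrays by 1 probe of the 42006, a 60-base oligonucleotide with the identifier Z00034256-1, which was chosen because a supplementary table of the study pairs that identifier with the gene symbol. It is the gene whose reporter was used to sort the cells, so its signal shows how far the sorted populations differed in the transcript that the sort was meant to follow. The data are 8 Agilent arrays with 2 dyes, each carrying RNA of sorted mouse embryonic stem cells (ESCs) in Cy3 and a Universal Mouse Reference, pooled RNA of cultured mouse cell lines, in Cy5. The series asks how *Zscan4*-positive and *Zscan4*-negative ESCs differ in regular medium (RM) and after retinoic acid (RA).

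The cells belong to a 129/Sv ESC line that the labels call 129.3:zscan4cEmgfp, in which the green fluorescent protein Emerald is a transgene that reports *Zscan4*. Every group carried that reporter, and the groups differ by the sorted fluorescence and the medium. RM-Zscan4+ and RM-Zscan4- had 3 arrays each, and RA-Zscan4+ and RA-Zscan4- had 1 array each. RA was used at 1.5 µM per the methods of the study, and the sort took place on day 5. The labels call the RM arrays biological replicates without saying that the cultures were separate, so p-values measure the spread between these samples, which may be partly technical. The line is 1 reporter line, and sorted cells of 1 array are a pool.

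*Zscan4* encodes a protein with a SCAN domain and zinc fingers that is expressed in the mouse embryo at the time of zygotic genome activation and, in ESC cultures, in a small and changing fraction of the cells. ESCs enter and leave this *Zscan4*-positive state, which has been linked to telomere elongation and genome stability, together with other genes of the early cleavage embryo such as *Tcstv1* and *Tcstv3*. Retinoic acid binds nuclear receptors that recognise repeats of a short half-site in DNA, and it drives ESCs towards differentiation. The *Zscan4* copies form a family of closely related genes, among which *Zscan4c* is known as the copy of ESCs and *Zscan4d* as that of the embryo.

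The probe sequence is shown because it defines what was measured. It holds 36.67% G and C, against a median of 43.33% over all probes, of which 17.31% had a lower content.
Zscan4 probe: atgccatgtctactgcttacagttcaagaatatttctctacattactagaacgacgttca
The longest run that it shared with any other probe of the array was 15 bases, and 0 probes shared a run of 20 bases with it. In RefSeq, assembly GRCm38.p6, the family holds 9 genes on chromosome 7, chr7:10794241-11614112, of which 4 are protein-coding (*Zscan4b*, *Zscan4c*, *Zscan4d* and *Zscan4f*) and 5 are pseudogenes. Transcript sequences were not used here and the naming table gives the symbol without a copy letter, so the signal is that of *Zscan4* as a family, and its division among the copies is uncertain. For the same reason no exon or UTR is stated for the probe.

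The sort rests on a *Zscan4* promoter. The 250 bases before the annotated start of *Zscan4c*, the copy in the name of the line, are therefore given. Those of *Zscan4b*, the coding copy with a second exact match to the half-site AGGTCA in its window, are given beside them. Both sequences are from RefSeq, GRCm38.p6, written 5′ to 3′ on the strand of the gene, with the half-site AGGTCA or its reverse complement TGACCT in capitals.
Zscan4c, chr7:11005495-11005744, plus strand: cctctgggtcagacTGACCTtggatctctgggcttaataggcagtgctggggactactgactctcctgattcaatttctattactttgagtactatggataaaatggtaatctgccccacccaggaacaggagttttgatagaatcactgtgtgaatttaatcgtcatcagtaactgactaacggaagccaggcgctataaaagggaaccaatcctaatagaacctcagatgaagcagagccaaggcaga
Zscan4b, chr7:10905051-10905300, minus strand: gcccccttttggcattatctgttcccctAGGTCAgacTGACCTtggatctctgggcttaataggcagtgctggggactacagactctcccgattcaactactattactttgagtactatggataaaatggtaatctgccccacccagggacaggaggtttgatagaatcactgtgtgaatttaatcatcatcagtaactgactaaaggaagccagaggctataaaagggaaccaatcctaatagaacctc
In local alignments of the 6 pairs of coding copies, between 94.7% and 99.6% of the positions were identical over 216 to 250 positions, the lowest value for *Zscan4b* with *Zscan4c* and the highest for *Zscan4c* with *Zscan4f*. The half-site AGGTCA, searched on both strands, was present before all 4 coding copies and in 14% of the 32851 promoter windows of that length. Only exact matches were counted. *Zscan4c* and *Zscan4f* read gggtca where *Zscan4b* has AGGTCA, and the *Zscan4d* window starts after that place. A direct repeat of AGGTCA with 5 or with 2 bases between was found before none of the 4 copies, and each of these patterns matched 3 windows in all (0.00913%). With exact patterns this rare, their absence before 4 copies says little. TGCACAC, a sequence known to be bound by the *Zscan4* zinc fingers, was likewise not found before the 4 copies and was present in 3.67% of the windows. These matches describe the letters in a short window of the reference genome, and the promoter fragment of the transgene was not analysed here.

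Each array held 42034 probe spots and 314 negative control spots, and the median probe gave a signal above local background of 114 to 241 in Cy3 and 254 to 501 in Cy5. The *Zscan4* spot had 28 to 30 pixels and no saturated pixel or outlier flag on any array, and the error assigned by the Feature Extraction software to its Cy3 signal was 0.929% to 1.85%. A Cy3 value can be set against the negative controls, whose 95th percentile lay at least 4.62 times below the *Zscan4* signal on every array. Spots were extracted on 3 days, according to the scanner files, with RM replicates 1 and 3 in 1 batch, RM replicate 2 in another and both RA arrays in the last, so that the extraction batch and RA cannot be told apart. As for the cell type, 2 of the 10 ESC markers listed had a named probe, *Fbxo15* and *Zfp296*. On the RM arrays their log2 ratios over the reference ran from 4.02 to 5.56 and from 2.12 to 3.72. Both have a name because they were selected for high values in RA-Zscan4+ cells on these arrays. They are therefore not a free pick from the 10 markers, and the labelled cell type was not tested.

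*Zscan4* was far higher in the cells sorted as positive. In RM-Zscan4+ cells its log2 ratio of sample over reference was 5.08, 5.59 and 5.03 in replicates 1, 2 and 3, which is 33.8, 48.1 and 32.6 times the reference on the linear scale. In RM-Zscan4- cells the log2 ratio was 0.10, 0.21 and 0.98, or 1.07, 1.16 and 1.97 times the reference. The reference signal that divides these values was itself higher on the RM-Zscan4+ arrays (mean processed Cy5 2812, against 1036 on the RM-Zscan4- arrays). All 3 positive arrays lay far above all 3 negative arrays, an order found for 4.97% of the 41113 probes with a value on every array, and the negative arrays lay near the level of the reference pool. Within the negative group, replicate 3 stood above the other two, as the plot of the log2 ratio by group shows.

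**Figure D1:**
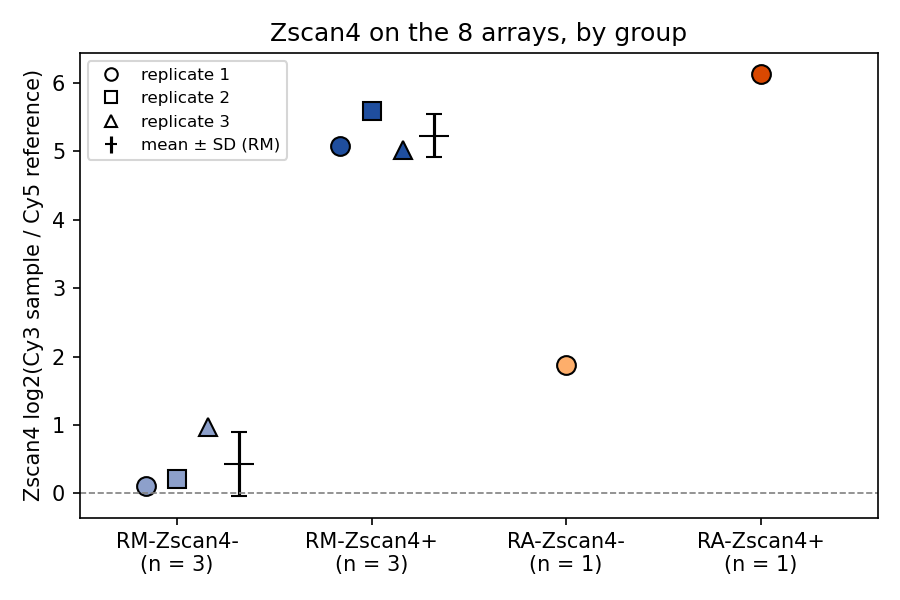
*Zscan4* log2 ratio of Cy3 (sorted cells) over Cy5 (reference) on each of the 8 arrays, by group, with the mean ± SD beside the 3 replicates of the RM groups. The RM-Zscan4+ arrays sit between 5.03 and 5.59 and the RM-Zscan4- arrays between 0.10 and 0.98, while the single RA arrays lie at 6.13 (positive) and 1.88 (negative).

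The group means of the log2 ratio were 5.23 ± 0.31 (SD, n = 3) and 0.43 ± 0.48 (SD, n = 3). The difference was 4.80 on the log2 scale (SE 0.27), a 27.8-fold difference with a 95% interval of 17.7-fold to 43.9-fold (limma, Benjamini-Hochberg adjusted p = 0.00378 over all probes). That fit and its interval leave the arrays unpaired. Blocked on the replicate number, the difference was again 4.80 (SE 0.27, limma, adjusted p = 0.0432). The 3 same-numbered pairs differed by 4.97, 5.37 and 4.05, so that the pair of replicate 3 had the smallest difference. The two-sided exact permutation test over the 6 arrays gave p = 0.1, the smallest value that 3 arrays against 3 allow. With thresholds of 3-fold and an adjusted p under 0.15, 81 of 42006 probes were higher in RM-Zscan4+ cells (0.193%), and *Zscan4* had rank 5 by size of the difference. The 4 probes with larger differences were those of *Tcstv3* (5.10, SE 0.38), a transcript of the early embryo, *LOC665446* (4.83, SE 0.29) and 2 probes without a name here, and the differences between them and *Zscan4* were not tested.

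The *Zscan4* probe also gave signal on the arrays of the negative population. Relative to the positive array of the same number, the ratio in RM-Zscan4- cells was 3.18%, 2.41% and 6.04% in replicates 1, 2 and 3. By the Cy3 signal above local background alone, which does not involve the reference, these shares were 1.02%, 0.86% and 3.08%. The share was highest in replicate 3 by both measures. This Cy3 signal was 1.09, 1.35 and 2.36 times that of the median probe on RM-Zscan4- replicates 1, 2 and 3. How much of it came from *Zscan4* RNA was not tested. In sorted bulk samples, fewer cells with *Zscan4* RNA and less *Zscan4* RNA per cell cannot be told apart, and neither can a few positive cells among those sorted as negative.

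In RA the same direction was seen in the only pair. The probe has its name from a list selected for high values in RA-Zscan4+ cells on these arrays. This direction was therefore fixed by the selection and is not independent evidence. The log2 ratio was 6.13 in RA-Zscan4+ cells and 1.88 in RA-Zscan4- cells, or 70.1 and 3.67 times the reference. The difference was 4.26, a 19.1-fold difference without a replicate check, and it lay within the 4.05 to 5.37 that the 3 RM pairs spanned. The study lists a larger fold for this probe in the RA pair, the largest of its list. Its folds were also larger for *Tcstv3* and *Tcstv1*, while for *Gm12794* and *Arg2* they were those found here (28.1 and 34.7). The reason for the gap was not tested. In that pair 204 of 41958 probes were at least 3-fold higher in the positive cells (0.486%), and *Zscan4* had rank 18. By the ratio, RA-Zscan4- cells held 5.24% of the level of RA-Zscan4+ cells, and by Cy3 above local background alone they held 0.843%. The first share lay above those of RM pairs 1 and 2 and below that of pair 3, while the second was close to that of RM pair 2 and below the other two.

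Both RA arrays had higher *Zscan4* ratios than every RM array of the same sort. The RA-Zscan4+ array lay 0.54 above the highest RM-Zscan4+ array on the log2 scale, and the RA-Zscan4- array lay 0.90 above the highest RM-Zscan4- array. Such an order was common on these arrays, since 27.1% of the 41113 probes with a value on every array were higher in RA-Zscan4+ cells than on all 3 RM-Zscan4+ arrays and 27.4% were higher in RA-Zscan4- cells than on all 3 RM-Zscan4- arrays. The levels thus ran from RA-Zscan4+ through RM-Zscan4+ and RA-Zscan4- to RM-Zscan4-, with a gap of 3.15 between the lowest positive and the highest negative array.

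The neighbours in this order that share a sort did not pass the test. RA-Zscan4+ exceeded the mean of RM-Zscan4+ by 0.90 (SE 0.38), or 1.87-fold with a 95% interval of 0.982-fold to 3.55-fold (limma, adjusted p = 0.42). For that comparison 67 of 41982 probes were called higher (0.16%). RA-Zscan4- exceeded the mean of RM-Zscan4- by 1.44 (SE 0.38), or 2.72-fold with an interval of 1.43-fold to 5.18-fold (limma, adjusted p = 0.2), and there 98 probes were called higher (0.233%). Without RM-Zscan4- replicate 3 the latter difference was 1.72 with an adjusted p of 0.115 in limma, which passes the threshold, so that 1 array decided this call. Both tests assume that the lone RA array varies like the RM arrays.

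Whether RA changed the size of the difference between sorted populations was tested as an interaction. The RA difference minus the RM difference was -0.54 (SE 0.54), with a 95% interval of -1.86 to 0.77 on the log2 scale (limma, adjusted p = 1 after rounding). Each RA group is 1 array, so the SE and the p come from the spread of the RM arrays alone. The interval holds differences in both directions, and the sign turned to 0.68 when the Cy3 channel was used alone.

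How much higher *Zscan4* stood in RA depended on the scaling of the dyes. The Cy3 signal above local background was 53628 in RA-Zscan4+ cells, against 23235, 21277 and 15938 in RM-Zscan4+ replicates 1, 2 and 3. Dye normalization multiplied it by 8.21 in RA-Zscan4+ cells and by 4.06, 7.29 and 4.93 in RM-Zscan4+ cells. With both dyes taken as scanned, the ratio of Cy3 to Cy5 was 15.5 in RA-Zscan4+ cells and 15.2, 20.1 and 11.0 in RM-Zscan4+ cells. By that measure the RA-Zscan4+ array lay inside the range of the RM-Zscan4+ arrays.

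Without dye normalization the median of all probes moved by -0.53 between RM-Zscan4+ and RA-Zscan4+ and by -0.65 between RM-Zscan4- and RA-Zscan4-. Relative to that median the *Zscan4* difference was 0.58 for RA-Zscan4+ over RM-Zscan4+ and 1.22 for RA-Zscan4- over RM-Zscan4-. Processed Cy3 without the reference, divided by the 75th percentile of each array, gave 2.15 and 1.46 relative to the median of all probes. The direction was the same in all 3 ways of scaling, while the size for the positive cells ranged from 0.58 to 2.15, as the plot of the comparisons by scaling shows.

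**Figure D2:**
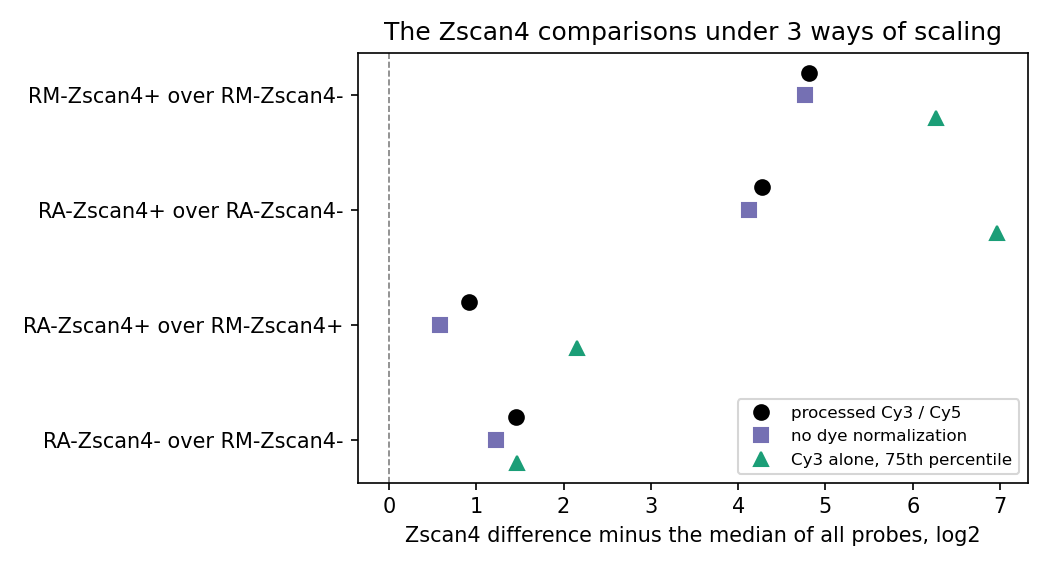
*Zscan4* differences between groups on the log2 scale, each minus the median difference of all probes, from the processed Cy3 over Cy5 ratio (circles), the ratio without dye normalization (squares) and processed Cy3 alone scaled to its 75th percentile (triangles). RA-Zscan4+ over RM-Zscan4+ spreads from 0.58 to 2.15, and the comparison of sorted populations in RM from 4.76 to 6.27.

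The reference channel was not constant at this probe. The same reference RNA was used on every array, yet the Cy5 signal above local background was 1532, 1059 and 1447 on RM-Zscan4+ replicates 1, 2 and 3 and 3457 on the RA-Zscan4+ array. On the negative arrays it was 502, 338 and 600 in RM and 512 in RA. All 4 positive arrays exceeded all 4 negative arrays, a pattern that 38 of 41113 probes showed (0.0924%). With processed Cy5 it was 112 probes (0.272%), *Zscan4* among them.

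The mean log2 of the processed Cy5 signal was 11.74 ± 0.61 (SD, n = 4) on positive and 9.99 ± 0.11 (SD, n = 4) on negative arrays, a difference of 1.75 or 3.37-fold (two-sided exact permutation test, p = 0.0286, the smallest value that 4 arrays against 4 allow). That test exchanges arrays freely, and with labels exchanged only within the 4 pairs of the same medium and number the exact permutation p was 0.125, the smallest that 4 pairs allow, with Cy5 higher in 4 of 4 pairs. With the RM arrays alone the difference was 1.43 (exact permutation test, p = 0.1, the smallest that 3 against 3 allow). Of the 41113 probes, 12 had a larger mean difference in Cy5 above local background than the 1.82 of *Zscan4*, and the median of all probes was 0.03.

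The Cy5 excess of a positive over a negative array was a few percent of that in Cy3. Per pair, the Cy5 excess above local background was 4.48%, 3.42% and 5.49% of the Cy3 excess in RM replicates 1, 2 and 3 and 5.54% in RA. The correlation of Cy3 and Cy5 over the pixels of the spot, as given by the software, was 0.652, 0.654 and 0.568 for RM-Zscan4+ replicates 1, 2 and 3, and 0.718 for RA-Zscan4+ cells. On the negative arrays it was -0.059, -0.113 and 0.330 in RM and -0.029 in RA. The part of signal passing from one dye into the other channel in the Cy5 excess was not tested.

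Since Cy5 is the denominator of the ratio, the fold by Cy3 alone was larger. Above local background, Cy3 was 98.0, 116 and 32.4 times higher on the positive array in RM pairs 1, 2 and 3 and 119 times higher in the RA pair, whereas the ratio gave 31.4, 41.5, 16.6 and 19.1. Scaled Cy3 alone gave 6.25 (SE 0.35) for RM-Zscan4+ over RM-Zscan4- in place of 4.80 (limma, adjusted p = 7.83e-05), and 6.92 for the RA pair in place of 4.26. The order of the RA pair against the RM pairs therefore depended on the channel, as the plot of both dyes shows.

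**Figure D3:**
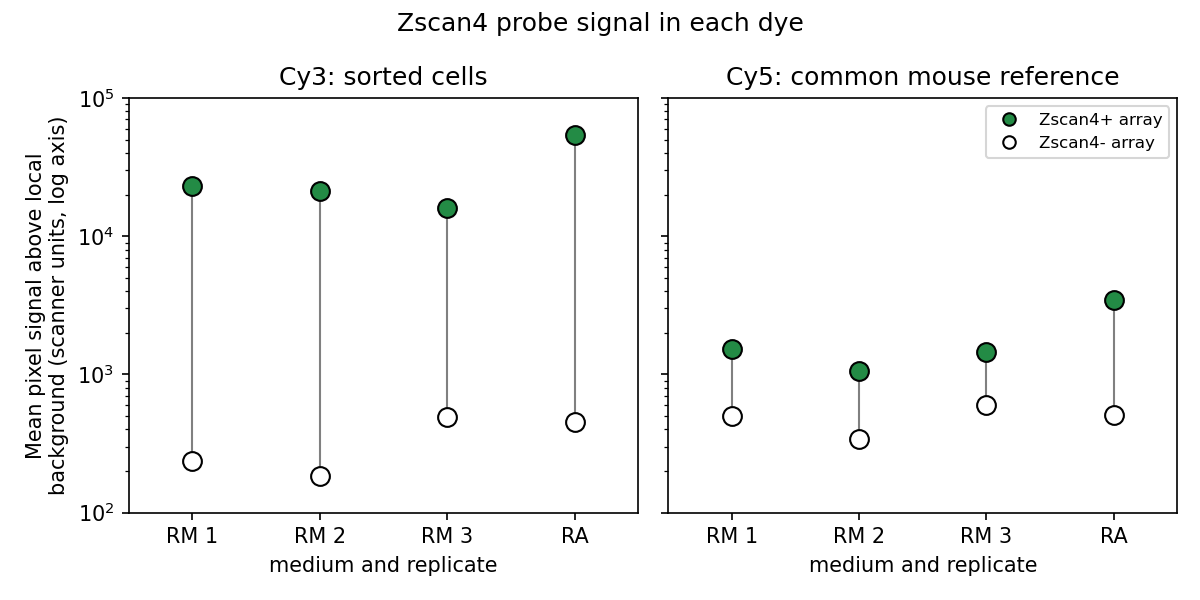
Mean pixel signal of the *Zscan4* spot above local background, in scanner units on a log axis, for Cy3 (sorted cells, left) and Cy5 (common reference, right), with each positive array (filled) joined to the negative array of the same medium and replicate (open). Cy3 spans 15938 to 53628 on positive and 183 to 492 on negative arrays, and Cy5, which holds the same RNA throughout, spans 1059 to 3457 and 338 to 600.

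Other probes showed the same pattern in the reference channel. Of the 38 probes whose Cy5 signal separated the positive from the negative arrays, 32 (84.2%) were among the 81 probes called higher in RM-Zscan4+ cells, against 0.193% of all probes. These were 39.5% of the 81, against the 0.0924% of all probes with such a separation. The calls and the Cy5 separation come from the same arrays, so this overlap is a description. The probes of 4 of the 6 genes of the *Zscan4* metastate signature were among the 38, against 0.0924% of all probes. Those 6 probes were named from a list selected for high values in RA-Zscan4+ cells on these arrays. Their count is therefore not independent evidence.

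The probes that followed *Zscan4* most closely over the 8 arrays were found by the root mean square (RMS) difference of log2 ratios after centring each probe on its own mean, among 41113 probes. The closest was *LOC665446* with an RMS difference of 0.188, followed by 2 unnamed probes and by *Tcstv3* with 0.315. *BC061212*, a gene of the *Zscan4* signature, had rank 5 (0.335), *Tcstv1*, a relative of *Tcstv3* in the early embryo, rank 8 (0.355), and *Arg2*, a mitochondrial arginase, rank 10 (0.408). The other 5 of the 10 had no name here, the eleventh probe had 0.411, and the median of all probes was 2.42. The 10 probes were chosen for this likeness, so their values are a description. Using Cy3 alone or group means, 7 of the 10 were again among the closest 10. Of the named probes, only *LOC665446* and *Tcstv3* stayed among them both ways. By Cy3 alone *BC061212* had rank 22 and *Arg2* rank 27, and by group means *Tcstv1* had rank 15 and *Arg2* rank 16.

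These probes shared little sequence with the *Zscan4* probe, the longest common run being 6 bases. Among themselves, the probes of *LOC665446* and Z00061010-1 shared a run of 24 bases, shown in capitals because those 2 probes may not be separate measurements of 2 genes. Neither probe was mapped to a transcript here.
LOC665446 probe: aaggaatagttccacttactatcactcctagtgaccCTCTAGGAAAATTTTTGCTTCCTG
Z00061010-1 probe: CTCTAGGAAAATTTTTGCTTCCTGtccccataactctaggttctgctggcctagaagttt
*Tcstv3*: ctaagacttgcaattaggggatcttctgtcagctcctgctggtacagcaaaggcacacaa
The *Tcstv3* probe is shown as an example of a probe for another gene with a like pattern, and its longest run in common with the *Zscan4* probe was 5 bases.

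Over the 10 closest probes the difference of RM-Zscan4+ over RM-Zscan4- ran from 4.10 to 5.10 on the log2 scale with a median of 4.62, beside a median of -0.01 over all probes. RA-Zscan4- over RM-Zscan4- ran from 0.31 to 1.65, and the *Zscan4* value of 1.44 lay in the upper part of that range. RA-Zscan4+ over RM-Zscan4+ ran from 0.30 to 1.83, with *Zscan4* at 0.90. *LOC665446* gave 5.03, 5.25 and 4.87 in RM-Zscan4+ cells, 0.18, -0.35 and 0.83 in RM-Zscan4- cells, and 5.97 and 1.87 in RA. Like *Zscan4*, it was highest in replicate 3 among the RM-Zscan4- arrays and higher still in RA-Zscan4- cells. Cy5 separated the positive from the negative arrays for 7 of the 10 probes, against 0.0924% of all probes. The 10 had been chosen for their likeness to *Zscan4* on these same arrays.

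**Figure D4:**
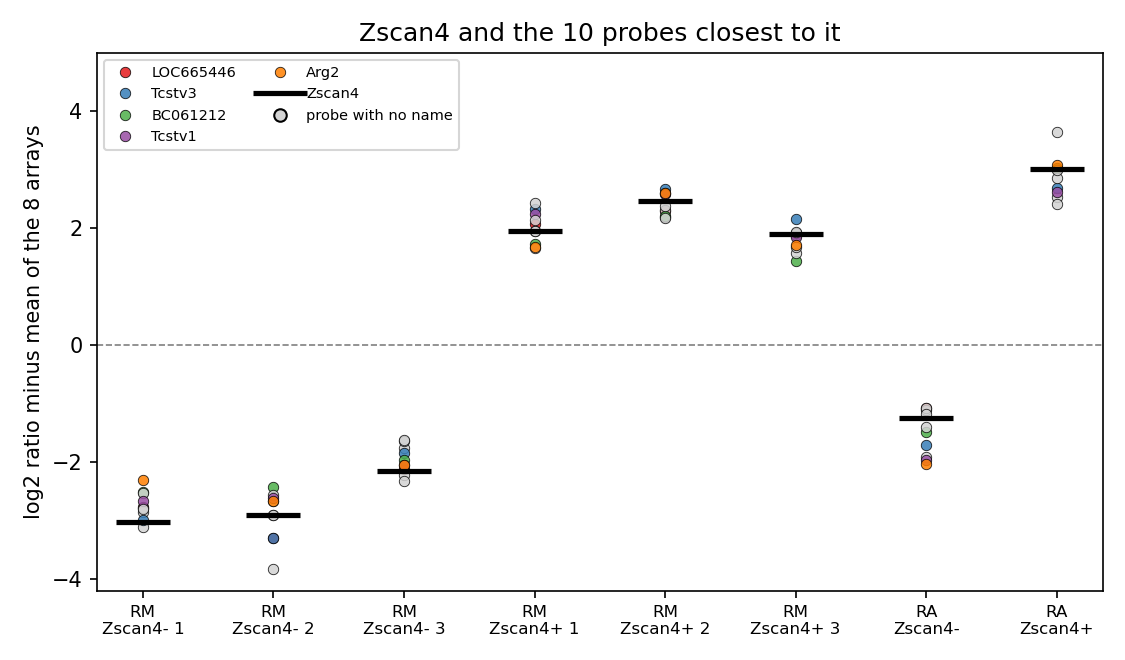
Log2 ratio on each of the 8 arrays minus the mean of the probe over them, for *Zscan4* (bars) and the 10 probes closest to it (points, 5 of them named). All 10 probes are above their mean on the 4 positive arrays and below it on the 4 negative ones, with RM-Zscan4- replicate 3 and RA-Zscan4- higher than the other two negative arrays for *Zscan4*.

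The 6 genes of the *Zscan4* metastate signature rose with *Zscan4* in RM. All 6 probes were called higher in RM-Zscan4+ cells, against 0.193% of all probes, with differences from 3.11 to 4.67 and a median of 4.05. None of the 6 calls, nor that of any other listed gene below, was kept with the t-statistics of the methods (adjusted p from 0.282 upwards), the test that also lost *Zscan4*. *Tcstv1* (4.67, SE 0.24, limma adjusted p = 0.00378) had the largest difference, and *Gm4340* (3.11, SE 0.23, limma adjusted p = 0.00934) the smallest. *Eif1a*, a member of a family of translation initiation factor genes, rose by 3.24 (SE 0.20, limma adjusted p = 0.00465). The adjusted p of *Gm12794* (4.12 with all arrays) missed the threshold without replicate 1 of the positive cells and without replicate 1 or 2 of the negative cells, with differences of 4.02, 4.04 and 3.99 and limma adjusted p of 0.231, 0.233 and 0.206. In the RA pair the 6 differences ran from 3.00 to 4.81. Names came from a table of probes selected for high values in RA-Zscan4+ cells on these arrays, and 120 of the 121 named probes with a value in the RA pair were at least 3-fold higher there, so the counts of this list and of those that follow are not independent evidence of direction.

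Of the 19 other genes known from two-cell embryos that were listed, 8 had a named probe, and 4 of these were called higher in RM-Zscan4+ cells, against 0.193% of all probes. *Tcstv3* rose by 5.10, *Tmem92*, which encodes a transmembrane protein, by 4.56, *Arg2* by 4.35 and *Zfp352*, a zinc finger gene, by 1.76 on the log2 scale. The 4 that were not called, *Zfp809*, *Dub2*, *5830484A20Rik* and *Tdpoz5*, had differences from 0.83 to 1.33, under 3-fold. *Tmem92* missed the adjusted p without replicate 1 of either group or RM-Zscan4- replicate 2 (differences from 4.32 to 4.52, limma adjusted p from 0.247 to 0.273), and *Zfp352* was called under none of the 6 ways of leaving out 1 RM array (1.47 to 1.92). The median of the 8 was 1.55. In the RA pair the 8 had a median of 2.55 beside -0.02 over all probes, and all 8 were at least 3-fold higher, against 0.486% of all probes, a count that the selection of the named probes nearly fixed.

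Of 9 genes of telomeres and recombination linked to *Zscan4*, 2 had a named probe. *Pif1*, a DNA helicase that acts at telomeres, rose by 3.62 (SE 0.13, limma adjusted p = 0.00153) in RM-Zscan4+ cells, and its difference was 3.76 in the RA pair. *Ercc4*, a subunit of a structure-specific DNA endonuclease, differed by 1.55 in RM, which is under 3-fold, and by 2.59 in RA. Without RM-Zscan4- replicate 3 its RM difference was 1.74, past the threshold (limma adjusted p = 0.0741).

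Both ESC markers with a probe, *Fbxo15* and *Zfp296*, had differences of 0.86 and 0.95 in RM that were not called (limma adjusted p = 0.566 and 0.517). In the RA pair the differences were 2.34 and 2.32. They went with lower values in the RA-Zscan4- cells, which differed from RM-Zscan4- by -1.54 and -1.82. RA-Zscan4+ differed from RM-Zscan4+ by -0.06 and -0.46, with 1 array in each RA group. By scaled Cy3 alone *Fbxo15* was called in RM, at 1.94 or 3.84-fold (limma adjusted p = 0.0154). Of 6 ectoderm markers, 3 had a probe. *Lmx1a*, a homeobox gene of neural development, rose by 1.69 in RM (SE 0.19, limma adjusted p = 0.0477), a call that was lost without RM-Zscan4+ replicate 1 or 2 or RM-Zscan4- replicate 2 or 3 (differences from 1.55 to 1.70). Its RM difference was under 3-fold with scaled Cy3 alone (1.45), normexp with loess (1.31) and centred median pixels (1.43). *Bdnf*, a neurotrophin, differed by 0.81 in RM and was not called, and *Cdh20*, a cadherin, differed by 0.06. In the RA pair *Lmx1a* differed by 3.29 and *Bdnf* by 1.61. *Cdh20* had no RA value here because its RA-Zscan4+ spot was dropped for an outlier flag, whereas the study lists it as enriched in RA-Zscan4+ cells. None of the 12 RA target genes listed and none of the endoderm, mesoderm or fibroblast markers had a named probe, so *Zscan4* could not be set beside a known response to RA. The plot of RM against RA differences places *Zscan4* beside these genes.

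**Figure D5:**
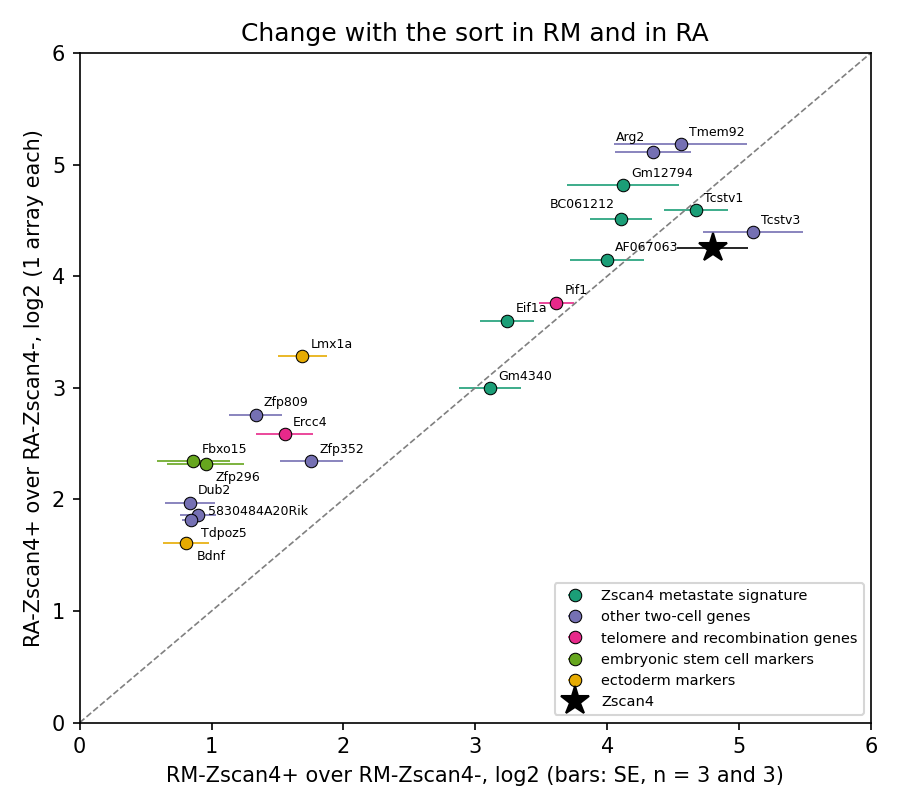
Log2 difference between positive and negative cells in RM (horizontal, with SE, 3 arrays against 3) and in RA (vertical, 1 array against 1) for *Zscan4* (star) and the listed genes with a value in both, coloured by list, with a dashed line of equal differences. *Zscan4* lies at 4.80 and 4.26, below the line, while *Arg2* and *Tmem92* lie above it at 5.12 and 5.18 in RA. By scaled Cy3 alone, which is not plotted, *Zscan4* had 6.25 in RM and 6.92 in RA, so its side of the line depended on the channel.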

How the data were processed

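RNA of sorted cells (Cy3) and a common mouse reference (Cy5) were measured on 8 arrays without a dye swap. The authors deposited the scanner output of each array, in intensity units, made by Agilent Feature Extraction (version 7.5.1 in the file headers, another than the methods name) after subtraction of local background and dye normalization, and with pixel means, pixel medians and a pixel correlation score. They also deposited a log10 matrix, which was used as an alternative. From the intensities, log2(Cy3/Cy5) was computed. Spots with an outlier flag were dropped, saturated ones stayed, and no filter on dim probes removed *Zscan4*. The means of the 4 groups were fitted with limma 3.58.1 (R 4.3.3) and p-values were adjusted by Benjamini-Hochberg. A call needed 3-fold and an adjusted p under 0.15, a limit taken from the methods. For the RA pair the fold alone was given. Exact permutation tests were run over arrays. Signal over background and the number of arrays limit the precision.

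The probe, the gene lists, the motifs and the rule for named genes (*Zscan4*, the 10 probes closest to it and the listed genes with a probe) were chosen with earlier results of these data known. Probe names came from 1 supplementary table of 128 probes. The deviations of same-numbered RM arrays from their group means correlated across probes with r = 0.388, 0.562 and 0.592, so the numbers of the labels were taken to pair the arrays. Alternatives were normexp with loess, loess on processed signals, Cy3 alone, centred median pixels, the matrix, a filter on dim probes, kept outlier spots, the methods' t-statistics, a trended prior, each RM array left out, replicate and batch blocks, and, chosen after seeing the data, no dye normalization, unscaled Cy3 and a Cy5 test within pairs. Fits were tested on simulated data. The labels describe total RNA, whereas the methods describe mRNA and an array with fewer features than the files hold.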

Additional observations from a re-analysis of the deposited data

Results flagged for a closer look

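The Cy5 signal of the *Zscan4* probe, which measures the common reference and enters no comparison of groups except as the denominator of the ratio, was higher on the arrays of Zscan4+ cells than on those of Zscan4- cells by 1.75 on the log2 scale (two-sided exact permutation test over 4 arrays against 4, p = 0.0286, the smallest that this design allows, and p = 0.125 within the 4 pairs, likewise the smallest), in 4 of 4 positive arrays over every negative one. The same reference RNA is on every array. The part of the second dye in this signal was not tested.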

How the results depend on the processing

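The higher *Zscan4* ratio in RM-Zscan4+ cells kept its direction under all 24 alternatives, with log2 differences from 4.05 to 6.25. It passed the threshold under all of them that gave a test except the t-statistics of the methods (4.80, adjusted p = 0.282). That test takes the larger of the variance of the probe and the mean variance of 500 probes of like intensity. For *Zscan4* the variance of the probe itself was used (SE 0.33, against 0.27 in limma). Leaving out 1 RM array at a time gave 4.62 to 5.07, and the pair of replicate 3 alone gave 4.05. Blocking on the replicate number, which respects the pairing, the difference was 4.80 (limma, adjusted p = 0.0432), and the interaction was -0.54 (limma, adjusted p = 0.936), so the block changed no call for *Zscan4*. Within batch 1 (RM replicates 1 and 3) the difference was 4.51 (limma, adjusted p = 0.134). The RA pair kept its direction under all 11 alternatives and moved to 6.92 with Cy3 alone and to 6.89 with unscaled Cy3. The interaction turned to 0.68 with Cy3 alone and to 0.72 with unscaled Cy3, neither past the threshold, and ran from -0.82 to -0.37 when 1 RM array was left out. RA-Zscan4+ over RM-Zscan4+ passed the threshold under none of 14 alternatives (0.05 to 2.19, and 0.80 to 1.08 with 1 RM-Zscan4+ array left out). RA-Zscan4- over RM-Zscan4- ran from 0.57 to 1.72, and from 1.28 to 1.72 with 1 RM-Zscan4- array left out, the highest value without replicate 3 being past the threshold (limma, adjusted p = 0.115). The Cy5 difference ran from 1.73 to 1.92 under 10 alternatives, and as a paired value it was 1.75 with an exact permutation p of 0.125 in place of 0.0286. Of the listed genes, those called in RM were all lost with the t-statistics of the methods. The count of probes called in RM was 111 at 2-fold and 61 at a false discovery rate of 0.05. *Cdh20*, near 0 in RM, ran from -0.0088 to 0.12 with 1 RM array left out, the lowest without RM-Zscan4+ replicate 1, and was -0.016 without dye normalization. The causes of these changes were not tested.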
